A study of Rattus norvegicus with 32 samples.

Results

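The genes of the 5 dopamine receptors, Drd1, Drd2, Drd3, Drd4 and Drd5, were followed in RNA-seq libraries of 4 rat brain regions. They were taken by gene name from the deposited count of each library, and all 5 were found among 28914 genes. Adult male Sprague-Dawley rats received METH (methamphetamine, 10 mg/kg) or saline (Sal) in 4 intraperitoneal injections 2 h apart, and brains were collected 24 h later. The nucleus accumbens (NAc) and subventricular zone (SVZ) were punched from frozen slices, while the dentate gyrus (DG) and Ammon's horn (CA) were scooped out of the hippocampus. Each region gave 4 saline and 4 METH libraries, 32 in all, named here by region, treatment and replicate (such as NAc METH 3). Total counts ranged from 11094002 to 21869773 with a median of 14533166.5.

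Dopamine receptors are G-protein-coupled receptors with a D1-like and a D2-like family. The D1-like receptors, encoded by Drd1 and Drd5, couple to the G proteins that stimulate adenylyl cyclase and raise cyclic AMP, and the D2-like receptors, encoded by Drd2, Drd3 and Drd4, couple to the G proteins that inhibit it. In the striatum, of which the NAc is the ventral part, Drd1 and Drd2 are carried largely by separate sets of medium spiny neurons, those of the direct and those of the indirect pathway. METH releases dopamine from the terminals that face these neurons.

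The labelled regions were first checked against marker genes, since the receptors are striatal genes and several libraries stood apart. The summed level of 8 genes of striatal medium spiny neurons (among them Ppp1r1b, Pde10a, Bcl11b and Rarb) lay between 1439 and 8345 CPM (counts scaled to library size, with upper-quartile normalization) in 7 of the 8 NAc libraries and at 208 in NAc METH 3. In the DG it was 1764 in DG Sal 3 and 370 to 597 in the other 7 libraries. In the SVZ it was 320 in SVZ Sal 1, 237 in SVZ METH 2 and 653 in SVZ METH 4, against 1684 to 5530 in the other 5, and these 3 libraries had the highest thalamic sums of the region (1614, 1436 and 962 CPM). The summed dentate granule markers were 58.3 to 241 CPM in DG saline (median 85.7) and 72.9 to 450 CPM in CA saline (median 271). In METH they were 89.2 to 467 CPM in the DG (median 359) and 94.6 to 236 CPM in the CA (median 134). These markers thus did not set the DG apart from the CA in saline, and in METH the ranges overlapped with the medians in the other order. DG Sal 4 held genes of the pineal gland, a list put together after their counts were seen: Tph1, a serotonin synthesis enzyme, had 39072 reads there and at most 80 in any other library. All samples were kept in their labelled groups. Several results that rest on these libraries, but not all, are also given without them. In tissue samples such as these, fewer cells of a type and less RNA per cell cannot be told apart.

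Drd1 and Drd2 carried most of the receptor reads, and the bases just before their annotated starts are shown here because both genes varied together over the libraries. The sequences are the 250 bases before the gene start from RefSeq on GRCr8, which is not the build of the counts, on the strand of the gene (both +) and written 5′ to 3′. Drd1 lies at chr17:10546354-10546603 and Drd2 at chr8:58605153-58605402. Capitals mark the GC box GGGCGG or its reverse complement.
Drd1: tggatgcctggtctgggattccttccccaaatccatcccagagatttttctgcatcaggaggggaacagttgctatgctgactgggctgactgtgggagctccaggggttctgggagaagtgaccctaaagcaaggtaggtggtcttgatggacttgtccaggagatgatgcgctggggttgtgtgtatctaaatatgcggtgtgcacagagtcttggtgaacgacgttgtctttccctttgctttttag
Drd2: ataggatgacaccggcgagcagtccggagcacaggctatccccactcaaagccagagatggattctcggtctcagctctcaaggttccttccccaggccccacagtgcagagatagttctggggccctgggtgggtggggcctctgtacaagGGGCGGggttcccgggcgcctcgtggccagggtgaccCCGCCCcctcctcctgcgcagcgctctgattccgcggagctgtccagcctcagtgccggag
The Drd2 window holds 2 GC boxes, 98 and 61 bases before the start and on opposite strands, and has a GC content of 66.0%. The Drd1 window holds 0 and has 51.2%, which equals the median of the 33469 windows in the table. A GC box on either strand occurs in 30.5% of these windows. Of the other receptors, Drd5 has 2 GC boxes and a GC content of 67.2%, and Drd3 and Drd4 have 0. The EGR site, searched as GCGNGGGCG on both strands, was in 4.29% of all windows and in 0 of the 5 receptor windows. These letters say nothing of sites elsewhere around the genes, nor of less exact matches. Whether transcription begins at the annotated starts was not tested, so a window, that of Drd1 included, need not be the promoter. The study scanned with motif matrices and reported EGR motifs in open chromatin around both Drd1 and Drd2, the Drd1 promoter among it.

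In the rn6 annotation of the counts, Drd1 (17:11101306-11103541, + strand) and Drd5 (14:77220579-77222006, - strand) are single exons of 2236 and 1428 bases. Drd2 (8:53678777-53743642, + strand) has 8 exon blocks with 2747 bases, Drd3 (11:61822077-61874327, - strand) has 7 with 1481 and Drd4 (1:214278296-214281483, + strand) has 4 with 1416. The exons of the 5 receptors overlap no other gene, which matters here since counting ignored the strand. Ankk1, the nearest neighbour of Drd2, lies 7449 bases away, and Drd3 shares its span, but no exon, with Gramd1c. Over the 32 libraries Drd1 had 41358 reads, Drd2 29353, Drd3 1060, Drd5 739 and Drd4 71. Drd1 and Drd2 were above a floor of 3 reads in all 32 libraries, Drd5 in 31, Drd3 in 20 and Drd4 in 2. A count of 3 reads is worth 0.133 to 0.280 CPM in these libraries.

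Levels of different receptors are compared per length, as RPKM, the CPM divided by the exon length in kilobases. Drd1 led the 5 receptors in 30 of 32 libraries and was above Drd2 in 31. In the NAc its median share of the summed RPKM was 62.3% (8 libraries, both treatments), beside 34.5% for Drd2, 2.79% for Drd3, 0.626% for Drd5 and 0.0410% for Drd4. In the SVZ the order was the same, with medians of 62.5%, 34.3%, 2.47%, 1.08% and 0.0264%. In the CA, over both treatments, Drd5 had a median share of 21.8% against 17.3% for Drd2 and 0.586% for Drd3. The order of Drd2 and Drd5 there was not the same in both treatments. In CA saline the medians were 20.3% for Drd2 and 16.2% for Drd5, and in CA METH 14.99% and 28.5%. CA Sal 3 and CA METH 3 had the opposite order to their group median, and the difference between treatments in these shares was not tested. In the DG Drd5 had 6.97%, between Drd2 (21.9%) and Drd3 (0.963%). In NAc METH 3 Drd2 was ahead, with 43.6% against 28.7% for Drd1. In DG Sal 4 Drd4 was ahead, with 39.4% against 35.4% for Drd1.

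**Figure D1:**
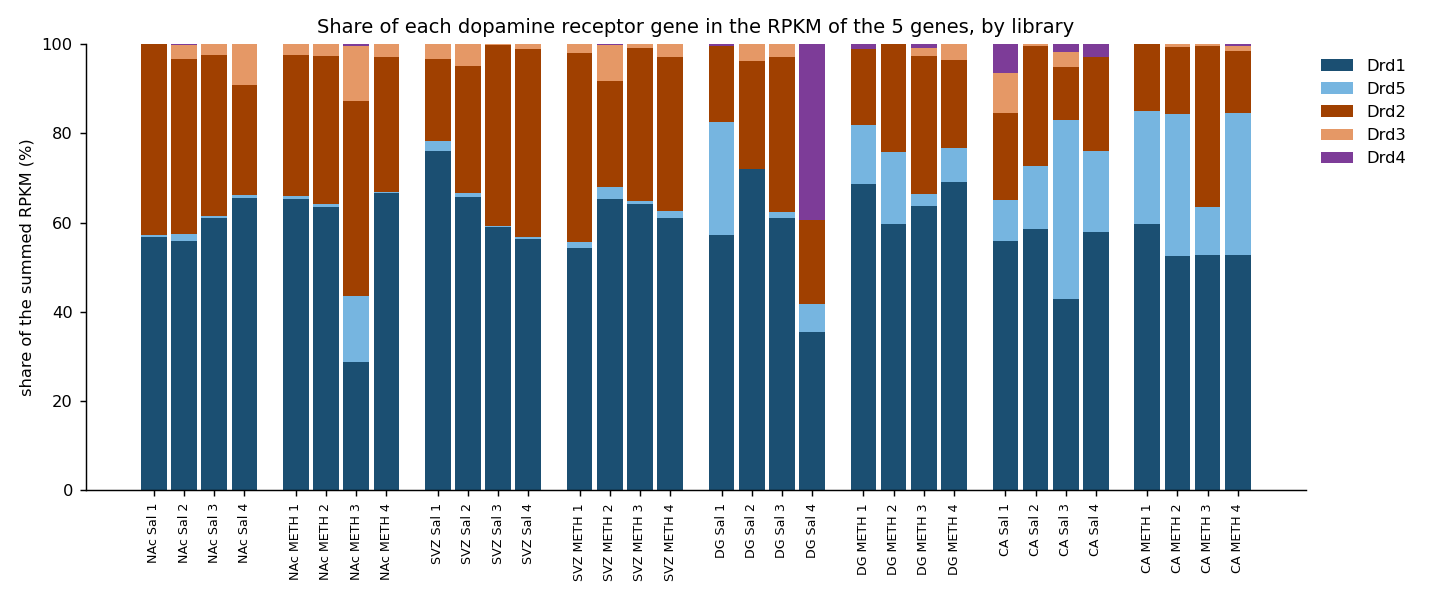
Share of each dopamine receptor gene in the summed RPKM of the 5 genes (percent, y axis) in each of the 32 libraries (x axis, grouped by region and treatment). Blue colours are D1-like and brown, orange and purple colours D2-like genes; Drd1 is the largest part except in NAc METH 3, where Drd2 leads with 43.6%, and DG Sal 4, where Drd4 leads with 39.4%.

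Drd1, the main stimulatory dopamine receptor of the direct pathway, was high in the NAc and SVZ and low in the DG and CA. In NAc saline its levels were 392, 95.4, 228 and 137 CPM (213 ± 132, SD, n = 4). In NAc METH they were 190, 223, 7.15 and 224 CPM (161 ± 104). NAc METH 3 alone fell outside the saline range, and the other 3 METH libraries lay inside it. The SVZ levels were 21.2, 209, 226 and 167 CPM in saline (156 ± 93.0) and 81.0, 19.8, 123 and 36.3 CPM in METH (65.1 ± 46.6). All METH libraries of the SVZ were below the 3 highest saline libraries, but SVZ Sal 1 was among the lowest of the region. In the DG the levels were 15.8, 7.71, 121 and 4.91 CPM in saline and 6.07, 5.49, 16.1 and 3.61 CPM in METH. DG Sal 3 thus held a level in the range of the NAc, and the other saline libraries overlapped with METH. In the CA they were 3.88, 15.2, 7.22 and 7.90 CPM in saline and 13.7, 9.12, 21.7 and 11.2 CPM in METH, with overlap between treatments.

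Drd5, the second stimulatory receptor, which has a high affinity for dopamine, was low in all regions and showed another regional order. It was 0.406, 2.34, 4.32 and 1.598 CPM in CA saline and 3.69, 3.52, 2.80 and 4.33 CPM in CA METH. CA METH 1 to 4 were all above 2.7 CPM while saline varied over a wider range that enclosed most of them. In the DG, saline held both extremes of Drd5 over the 32 libraries, 4.50 CPM in DG Sal 1 and 0 reads in DG Sal 2, which at that depth allows up to 0.272 CPM. The other DG saline libraries had 1.77 and 0.563 CPM and DG METH 0.744, 0.940, 0.414 and 0.253 CPM. In the NAc Drd5 ranged from 0.867 to 1.69 CPM in saline and from 0.734 to 2.38 CPM in METH, the highest being NAc METH 3, where Drd1 was lowest. In the SVZ it ranged from 0.424 to 1.59 CPM in saline and from 0.515 to 1.31 CPM in METH. These levels are 4 to 70 reads for the libraries with any.

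Drd2, the main inhibitory receptor, found on indirect pathway neurons and also on dopamine terminals as an autoreceptor, followed Drd1. In NAc saline it was at 363, 82.1, 165 and 63.0 CPM (168 ± 137) and in NAc METH at 112, 143, 13.3 and 125 CPM (98.4 ± 58.0). As for Drd1, only NAc METH 3 left the saline range. In SVZ saline it was at 6.31, 111, 190 and 154 CPM (116 ± 79.7) and in SVZ METH at 77.4, 8.92, 80.7 and 25.2 CPM (48.1 ± 36.4). In the DG 7 of 8 libraries were between 1.27 and 9.57 CPM and DG Sal 3 was at 84.3 CPM. In the CA, saline libraries had 1.68, 8.58, 2.47 and 3.53 CPM and METH libraries 4.21, 3.20, 18.3 and 3.61 CPM. CA METH 3 stood above the rest.

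Drd3, a D2-like receptor known for its place in the limbic ventral striatum, did not follow Drd2 in every library. It was at 0.385, 3.58, 6.26 and 12.7 CPM in NAc saline and at 4.86, 6.41, 2.04 and 6.27 CPM in NAc METH. NAc Sal 1, with the highest Drd1 and Drd2 of all libraries, had 5 reads of Drd3, and NAc METH 3, with the lowest Drd1 of the region, had 30. In SVZ saline it was at 0.612, 10.5, 0.774 and 2.06 CPM, and in SVZ METH at 1.98, 1.598, 1.15 and 1.16 CPM. SVZ Sal 2 alone had 224 reads, more than any other library. In the DG and CA 12 of 16 libraries were at or below 3 reads, and DG Sal 3 had 60 reads (3.79 CPM).

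Drd4, the D2-like receptor of cortex, retina and pineal gland, was at or below the floor in 30 libraries. Of its 71 reads 43 came from DG Sal 4 (3.46 CPM) and 5 from CA Sal 1 (0.290 CPM). No other library had more than 3. DG Sal 4 is the library with the pineal transcripts, in which Rbp3 had 3674 reads against at most 10 elsewhere and Crx, a factor of photoreceptors and pinealocytes, 881 against at most 1. Their part in the Drd4 count was not tested. Drd4 passed the filter on low counts in none of the fits below and has no test.

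**Figure D2:**
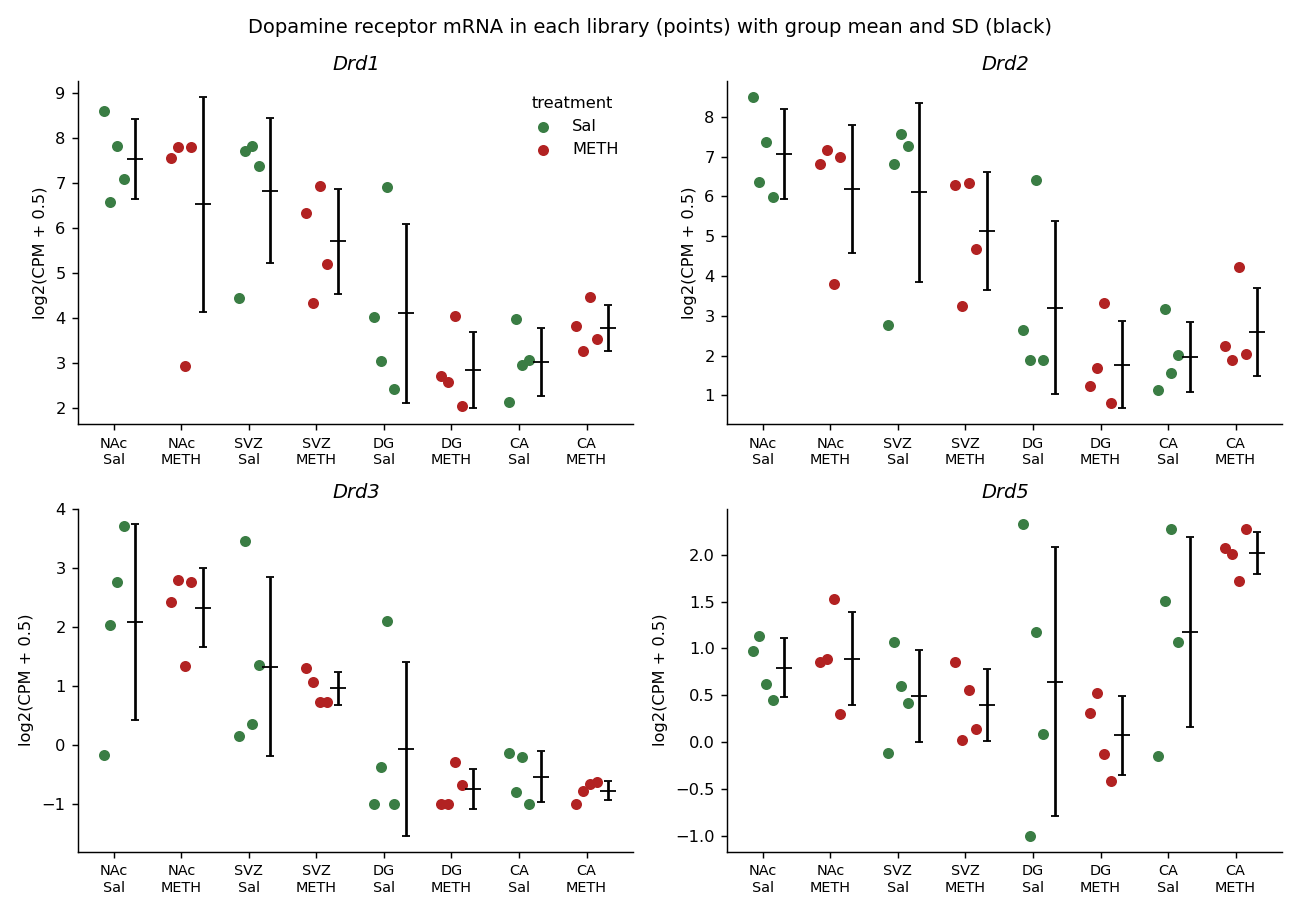
Level of Drd1, Drd2, Drd3 and Drd5 as log2(CPM + 0.5) (y axis) in each library (points, green saline and red METH) by region and treatment (x axis), with the mean and SD of the 4 libraries of each group in black. NAc METH 3 (7.15 CPM of Drd1) lies far below its group, DG Sal 3 (121 CPM) far above, and Drd5 is higher in CA METH than in the other groups on average (3.58 CPM).

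The 16 saline libraries were used to ask which regions differed in receptor expression, with edgeR's quasi-likelihood test over 15515 genes, 4 of the 5 receptors among them. Library numbers in the file headers recur across the NAc, DG and CA, so regions may share rats, which the region comparisons treat as independent. Drd1 had 25.4 times the level in the NAc as in the CA (log2 fold change 4.66 ± 1.04, SE, FDR 0.0313) and Drd2 42.3 times (5.40 ± 1.29, FDR 0.0342). Against the SVZ as well, the CA was low, with a log2 fold change from CA to SVZ of 4.24 ± 1.02 for Drd1 (FDR 0.0190) and 4.89 ± 1.26 for Drd2 (FDR 0.0242). The 4 NAc saline libraries did not overlap the 4 CA saline libraries for either gene, and the SVZ did not overlap the CA for Drd1. Drd3 had 0 to 7 reads in CA saline. It passed the filter on low counts only through libraries of other regions, so its comparisons with the CA add no support. For Drd2, SVZ Sal 1 lay within the CA range. The share of all genes without overlap was not counted. At an unadjusted p under 0.05 (edgeR) 24.1% of all genes passed in NAc against CA and 31.6% in SVZ against CA. Drd3 differed by 4.63 ± 1.51 between NAc and CA (FDR 0.0830) and by 3.92 ± 1.49 between SVZ and CA (FDR 0.0894). Drd5 went the other way in value, with log2 fold changes of -0.73 (NAc, FDR 0.626) and -1.11 (SVZ, FDR 0.373) against the CA.

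A gene was called at an FDR (Benjamini-Hochberg adjusted p over all genes tested) under 0.01 and a fold change above 2, the thresholds of the study's methods. No receptor passed this in any of the 6 pairs of regions. The share of all genes called was 0% for NAc against SVZ, DG and CA, 0.0193% for SVZ against DG, 0.812% for SVZ against CA and 0% for DG against CA. With DESeq2, and with 1 fit of all 32 libraries, Drd1 and Drd2 were called in NAc against CA and in SVZ against CA. DESeq2 called 3.41% and 4.94% of all genes in these comparisons, and the fit of 32 called 2.15% and 3.68%. With the FDR limit of edgeR set to 0.05, the same pair passed in both, beside 2.92% and 5.55% of all genes. At an unadjusted p under 0.05 (edgeR), Drd1 and Drd2 were higher in the NAc than in the CA, beside 24.1% of all genes in either direction. The same pair passed in SVZ against CA, beside 31.6%. Drd3 passed in both as well, with the limit on its CA reads given above. Drd1 and Drd2 passed it in NAc against DG (11.5% of all genes) and DG against CA (8.93%), and Drd1 in SVZ against DG (17.6%). In NAc against SVZ 0 receptors passed it, where 12.6% of all genes did.

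The DG comparisons rested on DG Sal 3. The log2 fold change of Drd1 in DG against CA was 2.17 ± 0.944 (FDR 0.537) and 0.16 without DG Sal 3. That of Drd2 was 2.63 ± 1.17 (FDR 0.549) and 0.03 without it. In NAc against DG, Drd1 was at 2.49 ± 0.931 (FDR 0.373) and 4.51 without DG Sal 3 (FDR 0.0176), and Drd2 at 2.77 ± 1.12 (FDR 0.380) and 5.38 (FDR 0.0230). In SVZ against DG, Drd1 was at 2.07 ± 0.917 (FDR 0.259) and 4.08 without DG Sal 3 (FDR 0.0166), and Drd2 at 2.26 ± 1.10 (FDR 0.300) and 4.87 (FDR 0.0208). Without that library Drd1, Drd2 and Drd3 had an unadjusted p under 0.05 (edgeR) in SVZ against DG, beside 23.5% of all genes. The remaining DG saline libraries had 0, 3 and 0 reads of Drd3, so its value there adds no support. In mean saline levels the order for Drd1 and Drd2 was NAc, SVZ, DG and CA. Between NAc and SVZ the differences were smaller than their SE, with 0.43 ± 0.880 for Drd1 (FDR 0.889) and 0.51 ± 1.04 for Drd2 (FDR 0.887). Those between DG and CA did not pass the FDR limit, as given above.

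Drd1 and Drd2 tracked each other and the striatal markers over the libraries. Across the 32 libraries Pearson's r of log2(CPM + 1) between them was 0.978, which describes libraries that share regions and tissue. Of 14450 genes with a mean of at least 1 CPM, those most like Drd1 were Adcy5, the adenylyl cyclase of striatal neurons (r = 0.980), Syndig1l (0.980), Drd2, Rarb, a retinoic acid receptor (0.974), and Ankk1 (0.969). Those most like Drd2 were Drd1, Syndig1l (0.978), Ankk1 (0.977), Adora2a, the adenosine receptor of indirect pathway neurons (0.976), and Sh3rf2 (0.975). Drd3 was closest to Fat1, Donson, AABR07010468.1, Ntn1, an axon guidance factor, and Gpr149 (r from 0.864 to 0.882), and its r was 0.747 with Drd1 and 0.730 with Drd2. Drd5 was closest to Dtx1, Oxtr, the oxytocin receptor, B4galt3, Fem1b and Vstm2b (0.764 to 0.805), while its r was -0.04 with Drd1. Against the summed striatal list, r was 0.921 for Drd1, 0.908 for Drd2, 0.592 for Drd3 and -0.08 for Drd5. DG Sal 3, with 1764 CPM of striatal markers, had 121 CPM of Drd1, between the 137 CPM of NAc Sal 4 and the 95.4 CPM of NAc Sal 2, whose sums were 1765 and 1439 CPM.

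**Figure D3:**
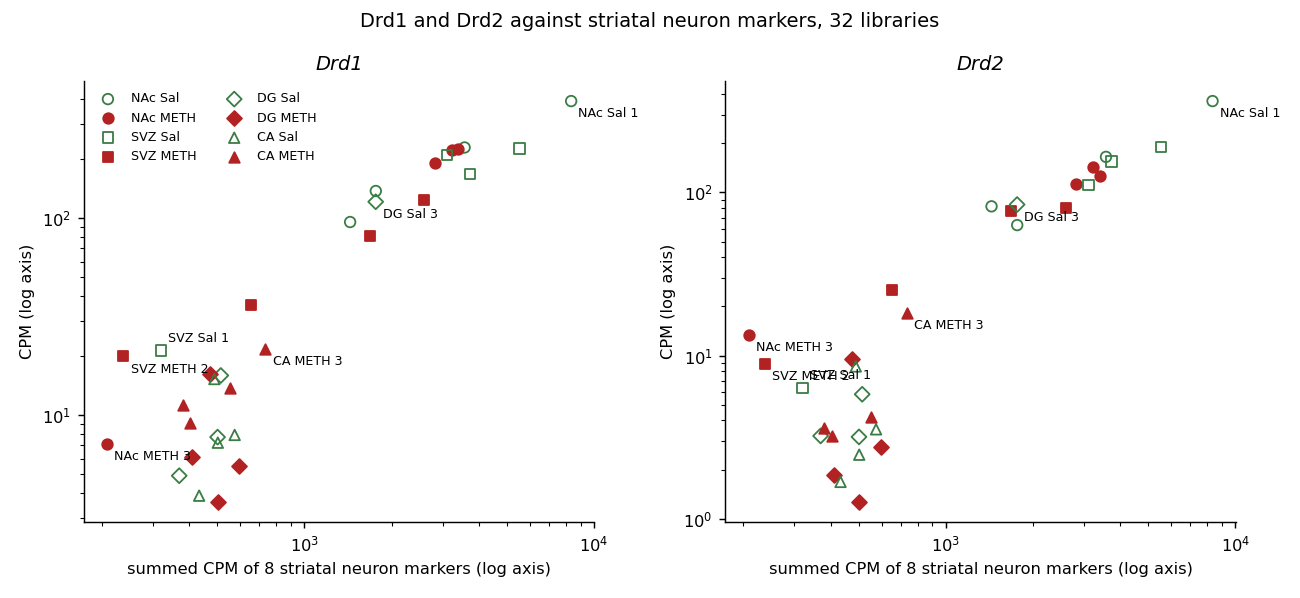
Drd1 (left) and Drd2 (right) in CPM (y axis, log) against the summed CPM of 8 striatal neuron markers (x axis, log) in the 32 libraries, with the shape giving the region and the colour the treatment (open green saline, filled red METH). DG Sal 3 lies among the NAc libraries and NAc METH 3 has the lowest marker sum, 208 CPM.

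METH was compared with saline in the 8 libraries of each region. In the NAc the log2 fold change was -0.37 ± 0.819 for Drd1, 0.21 ± 0.388 for Drd5, -0.73 ± 0.722 for Drd2 and -0.22 ± 0.757 for Drd3. In the SVZ it was -1.23 ± 0.767 for Drd1, -0.17 ± 0.467 for Drd5, -1.24 ± 0.963 for Drd2 and -1.23 ± 0.870 for Drd3. In the DG it was -2.24 ± 1.04 for Drd1, -1.53 ± 0.979 for Drd5 and -2.62 ± 1.23 for Drd2. In the CA all 3 tested receptors had positive values, 0.72 ± 0.406 for Drd1, 0.72 ± 0.527 for Drd5 and 0.89 ± 0.689 for Drd2. None of these differences passed the FDR limit, which is adjusted over all genes tested. The edgeR FDR was 0.999 for the 4 receptors in the NAc and 0.979 to 0.980 in the SVZ. It was 0.419 to 0.576 in the DG and 0.715 to 0.776 in the CA. The lowest unadjusted p of the edgeR test was 0.0608, for Drd1 in the DG.

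No receptor was called in any region, and edgeR called no other gene: the share of all genes called was 0% in each of the NAc, DG, CA and SVZ. DESeq2 also called 0 receptors in each, and 0.00677%, 0.784%, 0.0205% and 0.0128% of all genes. At an unadjusted p under 0.05 edgeR found 0 receptors in each region, beside 3.39% of all genes in the NAc, 12.8% in the DG, 7.16% in the CA and 2.58% in the SVZ. For each receptor and region the saline and METH libraries overlapped.

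The study's methods also remove RUVr factors, estimated sources of unwanted variation, of a number not given. With 1, 2 and 4 of them the log2 fold change in the NAc was -0.96, -0.94 and -0.88 for Drd1 (FDR 0.486, 0.289 and 0.174) and -0.93, -0.84 and -0.81 for Drd2 (FDR 0.449, 0.202 and 0.0695). With 4 factors the edgeR FDR was 0.0289 for Drd1 (-1.09) and 0.0451 for Drd2 (-0.92) in the SVZ, 0.0508 (-1.26) and 0.0622 (-1.48) in the DG and 0.0469 (0.77) and 0.0792 (0.69) in the CA. No receptor was called with any of these numbers of factors. The share of all genes at an unadjusted p under 0.05 also grew with the factors, from 8.75% with 1 to 19.5% with 4 in the NAc, 16.1% to 24.8% in the DG, 9.51% to 22.1% in the CA and 15.4% to 24.5% in the SVZ.

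Single libraries set several of these values. Without DG Sal 3 the log2 fold change in the DG was -0.23 for Drd1 and -0.02 for Drd2 (FDR 0.905 and 0.994). Without DG Sal 1 that of Drd5 was -0.49. Without NAc METH 3 the NAc gave 0.03 for Drd1 and -0.37 for Drd2, and without NAc Sal 1 it gave 0.08 and -0.06. Without CA METH 3 the CA gave 0.40 for Drd1 and -0.14 for Drd2. Without SVZ Sal 2 the value of Drd3 in the SVZ was 0.36. For Drd1 the SVZ gave -1.60 without SVZ Sal 1, -0.93 without SVZ METH 2 and -1.03 without SVZ METH 4, and for Drd2 -1.64, -0.90 and -1.03. The striatal marker sums of these libraries are given above, and in CA METH 3 the sum was 733 CPM against 381 to 575 in the rest of the CA. Their part in the receptor differences was not tested.

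Library names in the file headers of the NAc, DG and CA took several forms, which were read here as sequencing runs. No label states these runs, and this reading was not checked. The runs were unevenly spread over the treatments, and 1 run held 2 libraries of each treatment, in the NAc (NAc Sal 3 and 4, NAc METH 1 and 2). Within that run the log2 fold change was 0.20 for Drd1, 0.18 for Drd2, -0.74 for Drd3 and 0.49 for Drd5 (edgeR FDR 0.999), and with the run as a covariate in all 8 NAc libraries it was 0.19 for Drd1 and 0.17 for Drd2. In the DG a single run held both treatments, with DG Sal 3 as its only saline library, so the values with the run as a covariate, -4.40 for Drd1 and -5.21 for Drd2, set that library (121 CPM of Drd1) against DG METH 1 and 2 (6.07 and 5.49 CPM) and cannot be had without it. In the CA the runs with both treatments had 1 saline library each. The header numbers of DG Sal 1 and 2 are those of METH libraries in the NAc and CA, and those of DG METH 1 and 2 are those of saline libraries there. Without these 4 DG libraries the log2 fold change was -2.66 for Drd1 and -2.99 for Drd2. The saline side was then DG Sal 3 and DG Sal 4 (121 and 4.91 CPM of Drd1), so these values also rest on DG Sal 3. The 4 SVZ METH libraries carry 2 numbers between them, and summed by number they gave -1.25 for Drd1 and -1.27 for Drd2.

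**Figure D4:**
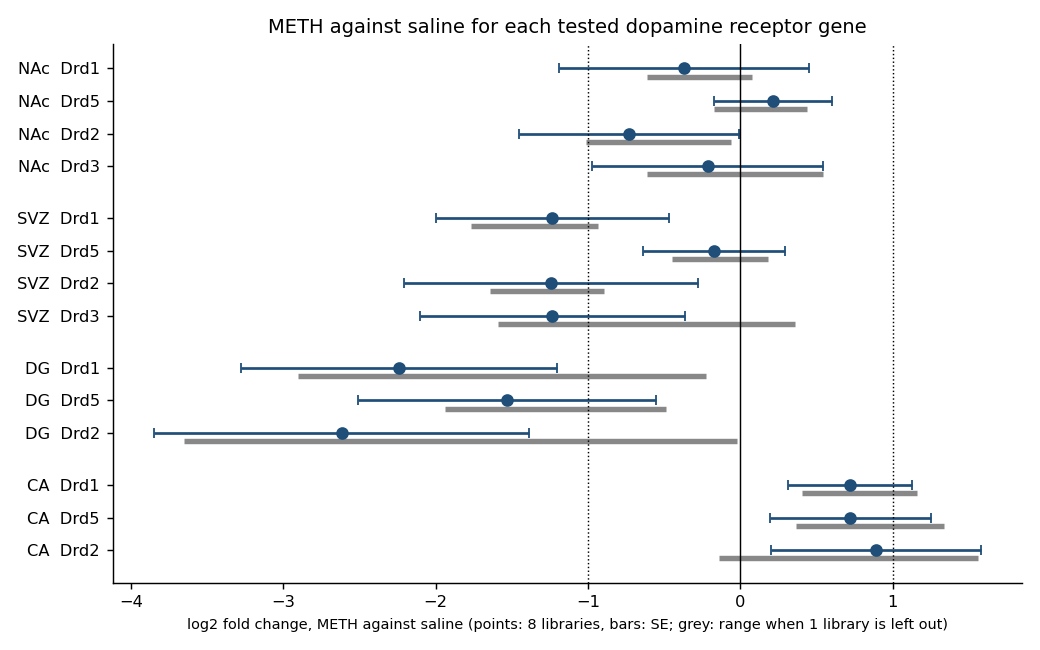
Log2 fold change of METH against saline (x axis) for each tested receptor gene and region (y axis). Points and blue bars are the value and SE from 8 libraries, grey bars the range when 1 library is left out, and dotted lines a 2-fold change; the grey bars of Drd1 and Drd2 in the DG reach from -2.90 to -0.23 and from -3.65 to -0.02.

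Whether the METH effect differed between the 4 regions was tested as an interaction in all 32 libraries and 16122 genes, again with regions as independent. The FDR was 0.821 for Drd1 and Drd5, 0.839 for Drd2 and 0.957 for Drd3, so 0 receptors passed, as did 0% of all genes. At an unadjusted p under 0.05 there were 0 receptors and 7.74% of all genes. The opposite signs in the DG and CA are therefore values, not a tested difference. Averaged over the regions, the METH effect was -0.79 ± 0.440 for Drd1, -0.93 ± 0.513 for Drd2, -1.42 ± 0.623 for Drd3 and -0.20 ± 0.343 for Drd5 (FDR 0.683, 0.680, 0.593 and 0.891). Again 0 receptors and 0% of all genes were called, and Drd3 alone had an unadjusted p under 0.05 (edgeR), as did 7.83% of all genes. In the DG and in the CA, 6 of 8 libraries had at most 3 reads of Drd3, which had no test within these regions. Its mean effect and interaction thus include values near the floor, and that p adds no support. Without DG Sal 3 the mean effect was -0.28 for Drd1, -0.28 for Drd2 and -0.54 for Drd3.

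The balance of Drd1 and Drd2 within a library does not depend on its depth or scaling. The log2 ratio of Drd1 to Drd2 reads was 0.11, 0.22, 0.47 and 1.12 in NAc saline and 0.76, 0.64, -0.90 and 0.84 in NAc METH. NAc METH 3, with 105 reads of Drd1 and 196 of Drd2, was the single library of 32 with more reads of Drd2. In SVZ saline the ratio was 1.74, 0.91, 0.25 and 0.11 and in SVZ METH 0.07, 1.15, 0.61 and 0.53. In the DG it was 0.52 to 1.45 in saline and 0.75 to 1.69 in METH, and in the CA 0.82 to 1.54 and 0.25 to 1.69. METH minus saline was -0.14 in the NAc, 0.27 in the DG, 0.09 in the CA and -0.17 in the SVZ. The exact two-sided permutation test gave p = 0.857, 0.457, 0.886 and 0.714 (0.886 for all 4 after adjustment over 4 regions), where 4 against 4 libraries allow no p below 0.0286. Without NAc METH 3 the NAc difference was 0.27, with the 3 METH libraries between 0.64 and 0.84 and saline on both sides of them.

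Drd1 and Drd2 were also set against the striatal neurons of the same library, as log2(CPM + 0.5) of the receptor minus the mean of the 8 striatal markers. For Drd1 this measure was -0.53 ± 0.246 in NAc saline and -0.68 ± 0.558 in NAc METH, and for Drd2 -1.01 ± 0.295 and -1.03 ± 0.256. In the SVZ it was -0.76 ± 0.311 and -0.64 ± 0.323 for Drd1 and -1.49 ± 0.482 and -1.22 ± 0.178 for Drd2. The differences between METH and saline were -0.15 and -0.02 in the NAc and 0.11 and 0.27 in the SVZ (exact permutation p = 0.800, 0.914, 0.657 and 0.429, each 0.914 after adjustment over the 4 tests). Over the 16 libraries of both regions the measure spanned 1.34 for Drd1 and 1.53 for Drd2, while log2(CPM + 0.5) of the genes spanned 5.68 and 5.74. The lowest value for Drd1 was -1.52, in NAc METH 3, where Drd2 had its highest value of -0.66. For Drd2 the lowest was -2.20, in SVZ Sal 1.

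Other genes of dopamine signalling were followed as 6 lists with 47 genes, 44 or 45 of which could be tested in a region. None was called in a METH comparison. Counting those with an unadjusted p below 0.05, the NAc had 0, the DG 2 with higher and 9 with lower levels in METH, the CA 3 and 1, and the SVZ 1 and 4. As given above, 3.39%, 12.8%, 7.16% and 2.58% of all genes passed in these regions. The median log2 fold change of those tested was -0.15 in the NAc, -0.35 in the DG, 0.08 in the CA and -0.28 in the SVZ, where that of all genes was 0.03, -0.01, 0.01 and 0.02. The 8 receptor partners, among them Adora2a and Rasgrp2, had medians of -0.58, -1.07, 0.11 and -1.03 in these regions. The 10 genes of G proteins and adenylyl cyclase had -0.05, -0.16, 0.12 and -0.11. Values of these lists and of their genes in the DG are not given without DG Sal 3, the library with striatal markers. Adora2a had a median of 2.88 and a maximum of 128 CPM in DG saline, against a median of 3.23 CPM in DG METH.

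Of these genes, the lowest p in the NAc were those of Arrb1, a beta-arrestin that ends receptor signalling (log2 fold change -0.15), Prkacb, a catalytic subunit of protein kinase A (-0.17), and Rasgrp2, a guanine exchange factor for Rap1 (-0.78), all at an edgeR FDR of 0.999. In the DG they included Prkar2b, a regulatory subunit of protein kinase A (-1.25, FDR 0.162), and Rgs4, which speeds the switching off of G proteins (-2.27, FDR 0.172). Rgs4 was at 81.4 to 503 CPM in DG saline and 35.1 to 69.5 CPM in DG METH, and Prkar2b at 65.8 to 125 and 28.6 to 45.8 CPM. The groups did not overlap for either gene, but both were picked for a low p, so this adds no support. In the DG 12.8% of all genes had an unadjusted p under 0.05 (edgeR), and the share without overlap was not counted. In the CA the lowest p were those of Adcy5 (0.50), Arrb2 (-0.22) and Grk2, a receptor kinase (0.15), at FDR 0.669 to 0.687. In the SVZ they were Pde7b, a phosphodiesterase that degrades cyclic AMP (-0.76), Arrb1 (-0.30) and Th, which makes the dopamine precursor (1.32), at FDR 0.979. Th was at 0.669 to 1.08 CPM in SVZ saline and 1.15 to 3.90 CPM in SVZ METH. In saline NAc against saline CA, the same count over 45 tested genes was 18 higher in the NAc and 7 lower, where 24.1% of all genes passed (2109 higher and 1636 lower), with 0 called, and the lowest p were those of Rasgrp2 (3.09, FDR 0.0298), Arrb2 (-0.68, FDR 0.0302) and Adcy5 (2.71, FDR 0.0314). Among them 4 of 5 phosphodiesterases were higher in the NAc, and of 8 receptor partners 5 were higher and 1 lower.

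The study reported that Drd1 and Drd2 fell in the NAc after METH, in correlation with lower EGR genes, transcription factors induced by neuronal activity. In the fits here neither receptor was called in the NAc, with or without RUVr factors, which differs from that report. Egr3 was at 127, 41.3, 72.4 and 54.9 CPM in NAc saline and at 54.8, 53.6, 6.74 and 56.8 CPM in NAc METH. NAc Sal 1 was highest and NAc METH 3 lowest, as for Drd1 and Drd2. Over the 8 libraries Pearson's r of log2(CPM + 1) with Egr3 was 0.981 for Drd1 (exact permutation p = 0.000595, adjusted over 8 relations 0.00476) and 0.960 for Drd2 (p = 0.00188, adjusted 0.00509). Spearman's rho was 0.905 (exact p = 0.00456, adjusted 0.0365) and 0.762 (0.0368, adjusted 0.147). With Egr1, Egr2 and Egr4, r was 0.802, 0.779 and 0.965 for Drd1 (adjusted exact p = 0.00960, 0.0595 and 0.00509) and 0.813, 0.830 and 0.935 for Drd2 (0.0215, 0.0349 and 0.00960). Their rho lay between 0.452 and 0.690, with adjusted exact p from 0.166 to 0.267.

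NAc Sal 1 and NAc METH 3 were the 2 libraries farthest from the median for each of the 4 EGR genes. None of the 8 relations had an exact p under 0.05 without both, in 6 libraries of a narrower range, though r of Drd1 with Egr1, Egr3 and Egr4 stayed between 0.659 and 0.810. Without both, r with Egr3 was 0.788 for Drd1 (exact permutation p = 0.0556) and 0.605 for Drd2 (0.203), and the other 6 relations had r from -0.15 to 0.810 and exact p from 0.107 to 0.776. Without NAc METH 3 alone, r with Egr3 was 0.874 for Drd1 and 0.883 for Drd2 (exact p = 0.00952 and 0.0151, both 0.0603 after adjustment). NAc METH 3 was also the library with few striatal markers. No sequencing run held 6 or more NAc libraries, so no value within a run is given.

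**Figure D5:**
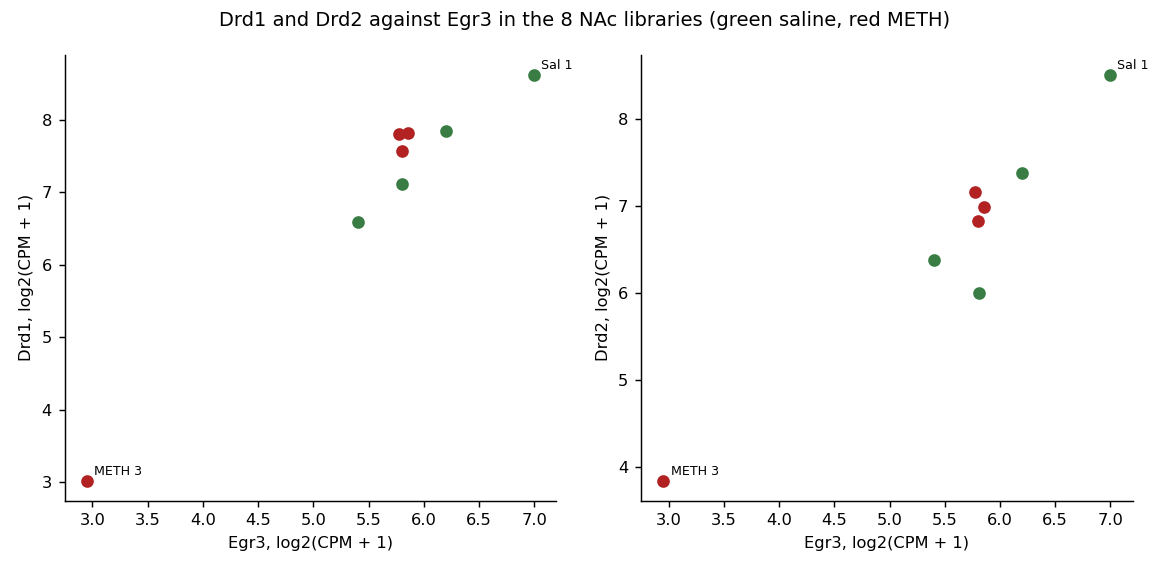
Drd1 (left) and Drd2 (right) against Egr3, all as log2(CPM + 1), in the 8 NAc libraries (green saline, red METH, with the lowest and highest library labelled). NAc METH 3 at the lower left and NAc Sal 1 at the upper right span most of the range, and r with Egr3 is 0.981 and 0.960 with them and 0.788 and 0.605 without them.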

How the data were processed

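The authors trimmed reads (cutadapt 2.7), mapped them to rn6 (STAR 2.5.2b) and deposited, per sample, counts of reads per gene from featureCounts 1.6.3, without strand and with Ensembl release 95 per the file headers (the methods name a UCSC annotation). The labels do not tie samples to animals, so p-values measure the spread between these samples, which may be partly technical.

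Here edgeR 4.0.16 (R 4.3.3, limma 3.58.1) fitted all genes after filterByExpr with upper-quartile scaling: METH against saline in the 8 samples of a region, pairs of regions in the 16 saline samples, and interaction and mean effect in all 32. The SE is the log2 fold change over the square root of F. The study also removes RUVr factors, whose number is not given, so 1, 2 and 4 factors were alternatives, beside TMM, DESeq2 1.42.0, no filter, other thresholds, the replicate number, the run and leaving out libraries. The series count matrix, leaving out DG Sal 3 and DG Sal 4 together, the NAc libraries of a single run and summing SVZ METH libraries by number were chosen after seeing the data. Single values were tested by exact permutation in Python 3.11.15 (scipy 1.17.1, numpy 2.4.6, pandas 2.3.3, matplotlib 3.10.9). The edgeR steps were tested on simulated data. The lowest chi-square per gene between libraries of a group was 16.5, above sampling noise, so none was merged.

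The receptors, pathway lists and marker lists were chosen with earlier results of these data known. Beyond the receptors, the text names the 5 genes most like each receptor with a mean of at least 1 CPM, the 3 pathway genes with the lowest p where none was called, Egr1 to Egr4 and markers. A pathway gene that this rule names in the DG is not reported here.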

Additional observations from a re-analysis of the deposited data

Results flagged for a closer look

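Within each group of 4 libraries, the level of each receptor and the log2 ratio of Drd1 to Drd2 were checked for a library far from the other 3 (48 sets of values, 11 of which had one). About 1 in 20 sets would if values were normally distributed and sets independent. The sets share libraries, and Drd4 was at or below the floor in most of them, so this rate does not measure chance here. Drd1 in NAc METH 3 was at 7.15 CPM (105 reads), far below the other NAc METH libraries, and the log2 ratio there was -0.90. DG Sal 3 was far above the other DG saline libraries for Drd1 (121 CPM), Drd2 (84.3 CPM) and Drd3 (3.79 CPM). Drd4 in DG Sal 4 was at 3.46 CPM (43 reads). CA METH 3 was above its group for Drd2 (18.3 CPM) and had the lowest log2 ratio of its group, 0.25. Drd3 in SVZ Sal 2 was at 10.5 CPM (224 reads).

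In a pair of sets the distance came from single reads: Drd4 in CA METH 4 was at 0.0721 CPM, which is 1 read where the others had 0, and in SVZ METH 4 it was at 0 where the others had 1. No receptor had METH libraries all above saline in a region and all below it in another. The marker levels that stand beside these libraries are given with the receptor values, and their part in them was not tested.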

How the results depend on the processing

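Of 761 alternative values of receptor fold changes, 726 kept their direction and side of the threshold and 27 reversed. No alternative called a receptor in a METH comparison, although with 1, 2 and 4 RUVr factors 2, 2 and 2 receptors passed an unadjusted p under 0.05 in the NAc, 2, 2 and 2 in the DG, 0, 1 and 3 in the CA and 1, 2 and 2 in the SVZ, against 0 in each region without them, and 4 passed in the DG in the fit of all 32 samples. The shares of all genes passing were 8.75%, 13.7% and 19.5% in the NAc, 16.1%, 20.5% and 24.8% in the DG, 9.51%, 13.3% and 22.1% in the CA, 15.4%, 20.1% and 24.5% in the SVZ and 14.6% in that fit. In saline NAc against CA and in saline SVZ against CA, 2 receptors (Drd1 and Drd2) were called at an FDR under 0.05, with DESeq2 and in the fit of all 32 samples, and 0 with the thresholds used, where the share of all genes called also rose. The cause was not tested. In the NAc, Drd1 and Drd2 reversed with the sequencing run as a covariate (log2 fold change 0.19 and 0.17) and within the 4 libraries of 1 run (0.20 and 0.18), and Drd3 with 2 or 4 RUVr factors (0.28 and 0.32). With DG Sal 3 and DG Sal 4 left out, the DG against CA value was -0.81 for Drd3 and 0.053 for Drd5, and the METH difference of the Drd1 to Drd2 log2 ratio in the DG was -0.13. The correlation of Drd1 with Egr2 was 0.833 with a pseudocount of 0.1 (adjusted exact permutation p = 0.0190). The run could not be fitted in the SVZ, where the library names formed a single set. The series count matrix does not list Drd4.

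Leaving out 1 library, the METH log2 fold change ranged in the NAc from -0.61 to 0.076 for Drd1, from -0.61 to 0.54 for Drd3 and from -0.17 to 0.44 for Drd5, in the CA from -0.14 to 1.56 for Drd2, and in the SVZ from -1.59 to 0.36 for Drd3 and from -0.45 to 0.18 for Drd5. The mean effect ranged from -0.95 to -0.28 for Drd1, -1.19 to -0.28 for Drd2, -1.77 to -0.54 for Drd3 and -0.30 to 0.063 for Drd5. Between saline regions, NAc against SVZ ranged from -0.023 to 0.67 for Drd1, -0.16 to 0.84 for Drd2 and -0.045 to 2.31 for Drd3. Drd5 ranged from -0.81 to 0.64 in NAc against DG, -1.19 to 0.26 in SVZ against DG and -1.38 to 0.27 in DG against CA, where Drd3 ranged from -1.36 to 2.67. The METH difference of the log2 ratio ranged from -0.31 to 0.27 in the NAc, -0.053 to 0.43 in the CA and -0.38 to 0.16 in the SVZ. Relative to striatal markers it ranged from -0.26 to 0.13 (Drd1, NAc), -0.040 to 0.22 (Drd1, SVZ) and -0.15 to 0.094 (Drd2, NAc). Correlations of Drd1 ranged from 0.798 to 0.845 with Egr1, 0.874 to 0.987 with Egr3 and 0.902 to 0.978 with Egr4, and those of Drd2 from 0.691 to 0.870, 0.727 to 0.872, 0.883 to 0.994 and 0.770 to 0.979 with Egr1 to Egr4.

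Saline and METH samples of a region share only a number: deviations of same-numbered saline and METH libraries correlated between -0.780 and 0.416, and 1, 4, 3 and 2 of 8 libraries in the NAc, DG, CA and SVZ correlated best with their own number. With the replicate number as a block 0 receptors were called in each of the 12 comparisons, and Drd3 in the NAc was at 0.16. At this depth Drd4 passed no filter, and Drd3 had no METH test within the DG or CA.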
